A study of Mus musculus with 6 samples.

Results

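The guanylate-binding proteins are a family of interferon-inducible GTPases. Rows of the deposited table were taken by gene name for *Gbp2*, *Gbp3*, *Gbp4*, *Gbp5*, *Gbp6*, *Gbp7*, *Gbp8*, *Gbp9*, *Gbp10* and *Gbp11*, which gave 10 of the 54532 genes listed. Of these, 4 lie on chromosome 3 and 6 on chromosome 5, the chromosome that also carries *Crlf2*. By the paper's account, peri-infarcted and infarcted heart tissue was taken on day 7 after the left anterior descending coronary artery had been tied off. RNA of 3 WT and 3 *Crlf2*-/- mice was sequenced. Each library is taken as 1 mouse, which the labels do not spell out. The labels give the strain of both groups as C57BL/6 and the genotypes as WT and TSLPR KO, where TSLPR is the receptor chain encoded by *Crlf2*. WT mice were young adult males from a commercial breeder and *Crlf2*-/- mice from the company that made the knockout, so the source of the animals and the genotype cannot be told apart. Hearts without infarction were not analysed here, so every value below belongs to an infarcted heart. Values are FPKM as deposited, that is fragments scaled to the length of the gene and to the depth of the library.

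Guanylate-binding proteins are large dynamin-like GTPases that are made in macrophages, endothelial cells and many other cells after interferon gamma, and more weakly after type I interferon. They bind to vacuoles and membranes that hold intracellular microbes, and they help caspase-11 and AIM2 inflammasomes to respond to bacterial lipopolysaccharide and DNA. Promoters of interferon-inducible genes often hold a gamma-activated site (GAS) or an interferon-stimulated response element (ISRE), the latter bound by IRF1 among others. In mouse the genes arose by duplication and stand in tandem on chromosomes 3 and 5.

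Promoters are shown for the chromosome 3 members so that the elements of *Gbp3* and *Gbp7*, whose levels were higher in *Crlf2*-/- mice before adjustment, can be read beside those of *Gbp2* and *Gbp5*. The RefSeq promoter table (GRCm38.p6) held 5 promoters for 4 of the 10 members, and *Gbp4*, *Gbp6*, *Gbp8*, *Gbp9*, *Gbp10* and *Gbp11* had no entry. Each sequence runs 5′ to 3′ over 300 bases, the last 50 of them after the start. Capitals mark matches to the GAS letters TTCNNNGAA or to the ISRE letters (GAAA, 2 bases of any kind, then GAAA), searched on both strands. The ISRE matches lie on the reverse strand and so read TTTC here, and those of *Gbp3* overlap each other.
*Gbp2* chr3:142620413-142620712 (+): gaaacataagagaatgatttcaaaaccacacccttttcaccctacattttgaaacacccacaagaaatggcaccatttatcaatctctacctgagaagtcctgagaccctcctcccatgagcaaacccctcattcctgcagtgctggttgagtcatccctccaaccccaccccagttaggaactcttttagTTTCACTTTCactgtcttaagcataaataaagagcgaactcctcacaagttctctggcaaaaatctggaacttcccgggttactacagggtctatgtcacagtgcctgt
*Gbp3* chr3:142559794-142560093 (+): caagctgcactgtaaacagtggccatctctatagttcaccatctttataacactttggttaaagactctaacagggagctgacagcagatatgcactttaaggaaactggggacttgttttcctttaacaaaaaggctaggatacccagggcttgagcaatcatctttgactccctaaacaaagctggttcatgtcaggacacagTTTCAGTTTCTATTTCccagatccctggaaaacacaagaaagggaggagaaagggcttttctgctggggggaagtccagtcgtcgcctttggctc
*Gbp5* chr3:142496684-142496983 (+): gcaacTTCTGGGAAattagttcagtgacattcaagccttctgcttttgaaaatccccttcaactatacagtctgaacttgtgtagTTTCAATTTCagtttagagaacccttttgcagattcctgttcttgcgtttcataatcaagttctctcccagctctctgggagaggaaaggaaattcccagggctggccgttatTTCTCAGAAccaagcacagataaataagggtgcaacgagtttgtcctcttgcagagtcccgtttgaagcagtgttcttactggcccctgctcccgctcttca
*Gbp7* chr3:142530086-142530385 (+): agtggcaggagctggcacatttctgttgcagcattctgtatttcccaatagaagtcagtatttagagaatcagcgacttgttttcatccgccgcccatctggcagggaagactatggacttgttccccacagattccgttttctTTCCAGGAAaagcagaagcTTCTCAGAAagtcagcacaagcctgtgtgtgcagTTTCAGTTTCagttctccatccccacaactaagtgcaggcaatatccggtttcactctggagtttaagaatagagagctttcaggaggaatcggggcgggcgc
An ISRE match was present in each of these 4 promoters, and 2 GAS matches each were present in those of *Gbp5* and *Gbp7*. The second *Gbp3* promoter of the table held neither. Over all 32851 promoters of this length, 3.44% held the ISRE letters, 8.30% held the GAS letters and 0.454% held both. The ISRE match of *Gbp2* ended 50 bases before the start, that of *Gbp7* ended 44 bases before it, and that of *Gbp5* ended 156 bases before it. A match of letters describes the sequence and does not show that a factor bound there.

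The level of the members spanned more than a factor of 100 between the highest and the lowest gene. Compared per length in FPKM, *Gbp2* was the highest, with 24.6 to 29.4 over the 6 libraries, followed by *Gbp3* with 10.04 to 23.4. *Gbp9* (4.03 to 8.37) and *Gbp7* (4.16 to 8.46) came next and their ranges overlapped. *Gbp5* (1.72 to 2.98) and *Gbp4* (1.61 to 2.93) could not be ordered either, nor could *Gbp6* (0.686 to 1.30) and *Gbp8* (0.585 to 1.22). *Gbp11* (0.0637 to 0.165) and *Gbp10* (0.0221 to 0.195) were lowest, with 2 to 17 fragments per library. These 2 genes missed the filter of 10 fragments in 3 libraries, and 8 members were tested. Each of those had at least 47 fragments in every library, so the filter did not depend on the group. The levels of *Gbp6*, *Gbp7* and *Gbp10* are less certain and may read low. Of their exonic bases, 29.0%, 11.3% and 46.3% also lie in another gene that is listed at 0 FPKM.

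**Figure D1:**
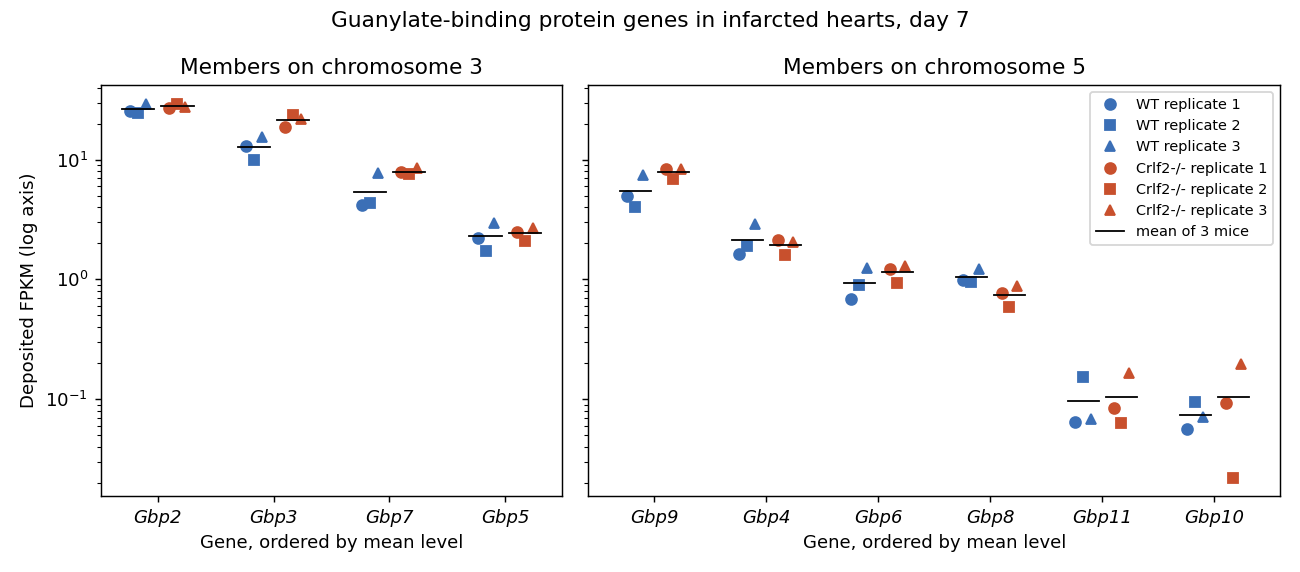
Deposited FPKM on a log axis for each member, with 1 point per mouse (WT in blue, *Crlf2*-/- in red, marker shape by replicate number) and a line at the mean of 3 mice. The chromosome 3 members include the 2 highest genes, and *Gbp10* and *Gbp11* lie near 0.1 FPKM in both groups.

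Between *Crlf2*-/- and WT hearts, *Gbp3*, *Gbp7* and *Gbp9* had higher levels in *Crlf2*-/- mice at an unadjusted p under 0.05, while *Gbp2*, the highest gene of the family, was nearly level. No member passed the study's thresholds as applied here with limma. These ask for an adjusted p up to 0.05 with a log2 fold change of 0.5 or more in size, and 0 of the 8 tested members were called (limma on log2(FPKM + 0.1), Benjamini-Hochberg adjustment over 15520 genes), where 0.0129% of all genes were called. The voom form of the test on fragments also called 0 members. The study applied these thresholds with a count test that was not run here. It reported far more genes than the 2 called here, and what that test gives for the members was not examined. At an unadjusted p under 0.05, 3 of 8 members were higher, where 3.22% of all genes were, and 0 of 8 were lower, where 3.36% were. Fewer cells of a type and less RNA per cell cannot be told apart in such bulk libraries. The limma p-values rest on the spread between the 3 libraries of each group, drawn toward that of genes of like level. Part of this spread may be technical.

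On chromosome 3, *Gbp3* (ENSMUSG00000028268, plus strand, chr3:142560026-142573209) belongs to the block of genes whose joint deletion impairs caspase-11 responses in mice. It stood at 13.1, 10.04 and 15.3 FPKM in WT hearts and at 18.8, 23.4 and 21.7 FPKM in *Crlf2*-/- hearts. The groups did not overlap. The WT mean of 12.8 ± 2.66 FPKM (SD, n = 3) compared with a *Crlf2*-/- mean of 21.3 ± 2.33 FPKM (SD, n = 3), which is a log2 fold change of 0.75 (standard error 0.17, 95% interval 0.36 to 1.13, adjusted p = 0.254 from limma). The exact two-sided permutation test gave p = 0.1 for *Gbp3*, the smallest value that 3 mice against 3 allow. It was the only member whose *Crlf2*-/- libraries all lay above the WT libraries, which held for 5.37% of all tested genes. With each library left out in turn, and under 8 other settings, its log2 fold change stayed between 0.57 and 0.88 with an unadjusted limma p of at most 0.00873.

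*Gbp7* (ENSMUSG00000040253, plus strand, chr3:142530342-142550149) has been tied to the assembly of the NADPH oxidase on vacuoles. It had 4.16, 4.32 and 7.73 FPKM in WT and 7.84, 7.60 and 8.46 FPKM in *Crlf2*-/- mice. WT replicate 3 lay among the *Crlf2*-/- mice, and the other WT mice lay far below them. Its log2 fold change was 0.61 (standard error 0.22, 95% interval 0.10 to 1.12, adjusted p = 0.635 from limma). Without WT replicate 3 it was 0.90 (adjusted p = 0.0598 from limma), and the adjusted p ranged from 0.0598 to 1.00 over the alternatives.

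*Gbp2* (ENSMUSG00000028270, plus strand, chr3:142620602-142638008) is a prenylated member that coats pathogen vacuoles. It had 25.4, 24.6 and 29.4 FPKM in WT and 27.0, 29.2 and 27.4 FPKM in *Crlf2*-/- mice, with overlapping groups. Its log2 fold change of 0.08 had a 95% interval from -0.16 to 0.33 (adjusted p = 0.992 from limma). *Gbp5* (ENSMUSG00000105504, plus strand, chr3:142493978-142522344), another prenylated member and an activator of inflammasomes, had 2.21, 1.72 and 2.98 FPKM in WT and 2.4997, 2.08 and 2.69 FPKM in *Crlf2*-/- mice. For *Gbp5* the log2 fold change was 0.10 with a 95% interval from -0.38 to 0.58 (adjusted p = 0.996 from limma), and it was -0.090 without WT replicate 2. Among the chromosome 3 members, *Gbp3* and *Gbp7* thus had the larger log2 fold changes and *Gbp2* and *Gbp5* the smaller. These pairs were drawn after the values were seen, and differences between members were not tested. The interval of *Gbp5* overlapped those of *Gbp3* and *Gbp7*. Among the chromosome 3 members the same pairs are the closest in sequence. *Gbp3* and *Gbp7* had 78.6% identical bases in their aligned coding sequences and *Gbp2* and *Gbp5* had 72.1%, while the 4 comparisons across the pairs ranged from 64.8% to 66.3%. *Gbp3* and *Gbp7* were also nearer to the chromosome 5 members, at 72.5% to 75.9%. On chromosome 5, *Gbp8* and *Gbp9* had 90.5% identical bases, with log2 fold changes of -0.46 and 0.56. A relation between sequence and change was not tested.

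**Figure D2:**
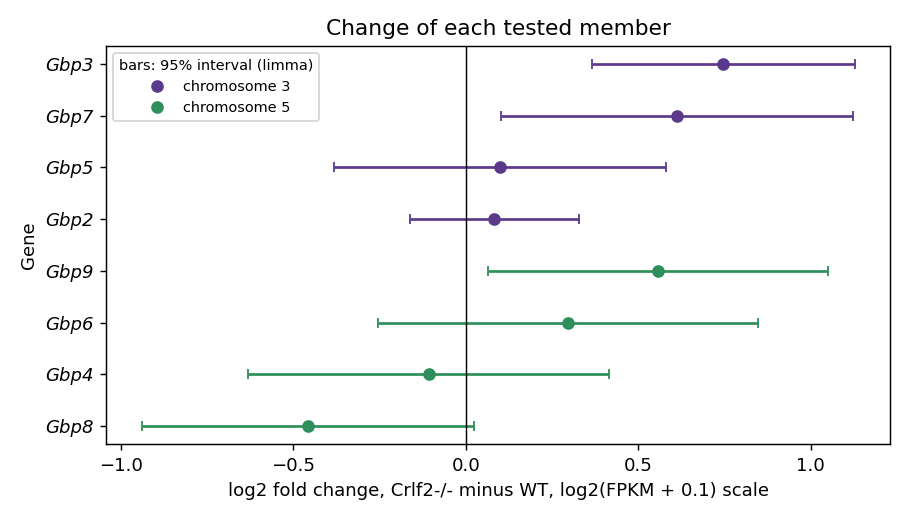
Log2 fold change of *Crlf2*-/- against WT for each tested member (point) with its 95% interval from limma (bar), by chromosome. The intervals of *Gbp3*, *Gbp7* and *Gbp9* lie above 0 before adjustment for 15520 genes, and those of the other 5 include 0.

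The chromosome 5 members did not share 1 direction. *Gbp9* (ENSMUSG00000029298, minus strand, chr5:105077630-105139539), the highest of them, had 4.98, 4.03 and 7.48 FPKM in WT and 8.37, 6.93 and 8.34 FPKM in *Crlf2*-/- mice. As for *Gbp7*, WT replicate 3 was the library that overlapped with the *Crlf2*-/- mice. For *Gbp9* the log2 fold change was 0.56 (standard error 0.21, 95% interval 0.06 to 1.05, adjusted p = 0.686 from limma). It was 0.80 without WT replicate 3 and 0.36 without WT replicate 2, the lowest value of all settings (adjusted p = 1.00 from limma).

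*Gbp8* (ENSMUSG00000034438, minus strand, chr5:105014150-105139540) was the member with the largest difference in the other direction. It had 0.996, 0.952 and 1.22 FPKM in WT and 0.773, 0.585 and 0.876 FPKM in *Crlf2*-/- mice, from 47 to 92 fragments per library. The highest *Crlf2*-/- value was below the lowest WT value, which held for 6.37% of all tested genes and for no other member. Its log2 fold change was -0.46 (standard error 0.21, 95% interval -0.94 to 0.02, adjusted p = 0.792 from limma). The exact two-sided permutation p was 0.1. Over the alternatives the value lay between -0.57 and -0.24, and it was -0.57 without *Crlf2*-/- replicate 3. The unadjusted limma p of *Gbp8* was under 0.05 in that fit, under the filter of 10 fragments in all 6 libraries, and with the replicate block, and not in the others. On this scale the pseudocount understates the change of a gene near 1 FPKM, and the value was -0.51 with a pseudocount of 0.01 and -0.24 with a pseudocount of 1.

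*Gbp4* (ENSMUSG00000079363, minus strand, chr5:105115767-105139586), described as a brake on IRF7, had 1.64, 1.88 and 2.93 FPKM in WT and 2.15, 1.61 and 2.07 FPKM in *Crlf2*-/- mice. Its groups overlapped widely and its log2 fold change of -0.11 had a 95% interval from -0.63 to 0.42 (adjusted p = 0.996 from limma). *Gbp6* (ENSMUSG00000104713, minus strand, chr5:105270702-105293698), which takes part in defence against intracellular bacteria, had 0.686, 0.891 and 1.24 FPKM in WT and 1.22, 0.936 and 1.30 FPKM in *Crlf2*-/- mice. For *Gbp6* the log2 fold change was 0.29 with a 95% interval from -0.26 to 0.85 (adjusted p = 0.952 from limma), and it was 0.12 without WT replicate 1 and 0.49 without WT replicate 3. *Gbp10* (minus strand, chr5:105215699-105239533) was covered by 5, 8 and 6 fragments in WT hearts and by 8, 2 and 17 in *Crlf2*-/- hearts. *Gbp11* (minus strand, chr5:105323042-105346472), annotated as a polymorphic pseudogene, was covered by 4, 9 and 4 fragments in WT hearts and by 5, 4 and 10 in *Crlf2*-/- hearts. At this depth no difference in *Gbp10* or *Gbp11* was detectable.

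The contrast of the clusters rested on these members. The median log2 fold change was 0.35 over the 4 tested members on chromosome 3 and 0.09 over the 4 on chromosome 5, where the median of all tested genes was -0.004. Positive fold changes were found for 4 of 4 members on chromosome 3 and 2 of 4 on chromosome 5. In each library the mean log2(FPKM + 0.1) of the chromosome 5 members was taken minus that of the chromosome 3 members, which gave -2.19, -1.97 and -2.02 in WT and -2.23, -2.60 and -2.29 in *Crlf2*-/- mice. These differences lay lower in every *Crlf2*-/- mouse, with a gap of under 0.05 between the nearest libraries of the groups. Weighted by level the contrast was not seen. The chromosome 5 members made up 15.8%, 16.4% and 19.0% of the summed FPKM of all members in WT and 18.4%, 14.01% and 17.7% in *Crlf2*-/- mice. Members are not replicates, so no p is given for these summaries.

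A pair of ratios between members of the same cluster is also described. The ratio of *Gbp3* to *Gbp2* was 0.518, 0.408 and 0.522 in WT and 0.696, 0.802 and 0.792 in *Crlf2*-/- mice. The ratio of *Gbp9* to *Gbp8* was 4.996, 4.24 and 6.12 in WT and 10.8, 11.8 and 9.52 in *Crlf2*-/- mice. Both ratios were higher in every *Crlf2*-/- mouse than in any WT mouse, and WT replicate 3 did not lie among the *Crlf2*-/- mice in either. These ratios were chosen after the values were seen and are described without a test. They are taken within a library, so scaling between libraries does not move them.

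**Figure D3:**
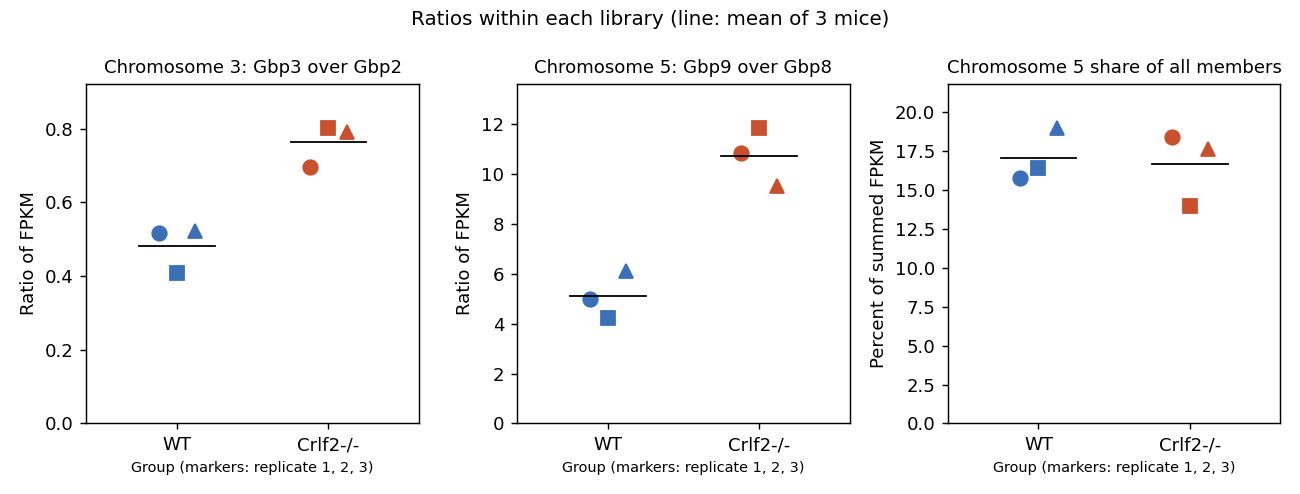
Ratio of *Gbp3* to *Gbp2*, ratio of *Gbp9* to *Gbp8*, and chromosome 5 share of the summed FPKM of all members, with 1 point per mouse and a line at the mean. The ratios separate the groups (0.408 to 0.522 against 0.696 to 0.802, and 4.24 to 6.12 against 9.52 to 11.8), and the share does not.

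WT replicate 3 had the highest values of the WT mice. It was the highest WT library for 8 of the 8 tested members and the highest of all 6 libraries for 4 of them, *Gbp2*, *Gbp4*, *Gbp5* and *Gbp8*. Its median deviation from the WT mean was 0.33 on the log2 scale for the chromosome 3 members and 0.43 for the chromosome 5 members. WT replicates 1 and 2 lay at -0.03 and -0.30 for chromosome 3 and at -0.20 and -0.15 for chromosome 5. In the *Crlf2*-/- mice the chromosome 3 medians were 0.37, 0.34 and 0.48, close to WT replicate 3, while the chromosome 5 medians were 0.22, -0.17 and 0.23. Across the 6 fits that left out 1 library, the chromosome 3 median ranged from 0.25 to 0.59 and the chromosome 5 median from -0.07 to 0.31. The number of members higher at an unadjusted limma p under 0.05 was 3 without WT replicate 3 or *Crlf2*-/- replicate 2. It was 2 without *Crlf2*-/- replicate 1 (*Gbp3* and *Gbp7*) and 1, *Gbp3*, without WT replicate 1, WT replicate 2 or *Crlf2*-/- replicate 3.

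**Figure D4:**
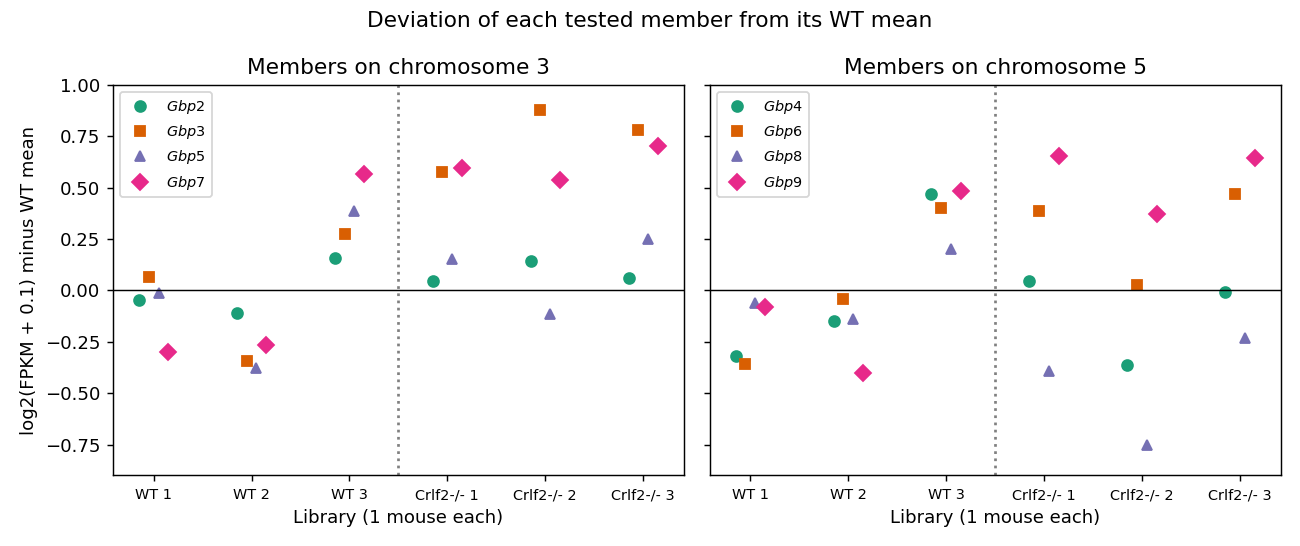
Log2(FPKM + 0.1) of each tested member minus its WT mean, by library, for the members on chromosome 3 and chromosome 5. WT replicate 3 is the highest WT library for every gene drawn, and *Gbp8* lies below 0 in the 3 *Crlf2*-/- libraries where *Gbp9* lies above 0.

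Genes of interferon gamma signalling, the pathway that induces the family, had a median fold change near that of all genes. Of 15 genes of interferon gamma signalling, 14 were tested and 0 were called, with a median log2 fold change of 0.05. At an unadjusted limma p under 0.05, 2 were higher and 1 was lower, where 3.22% and 3.36% of all genes were. *Ifng*, the cytokine itself, was covered by 7, 9 and 4 fragments in WT hearts and by 3, 1 and 2 in *Crlf2*-/- hearts and was too low to be tested. *Ifngr1*, its receptor chain, had 67.2, 63.0 and 65.4 FPKM in WT and 51.4, 53.0 and 50.4 FPKM in *Crlf2*-/- mice. The groups did not overlap (log2 fold change -0.33, adjusted p = 0.457 from limma), and 6.37% of all tested genes were lower in this way. *Irf9*, a factor of interferon signalling, averaged 10.41 ± 0.454 FPKM (SD, n = 3) in WT hearts, below the 14.7 ± 1.47 FPKM (SD, n = 3) of *Crlf2*-/- hearts. For *Irf9* the groups did not overlap either (log2 fold change 0.50, adjusted p = 0.25 from limma), and 5.37% of all tested genes were higher in this way. *Irf1*, which drives *Gbp2* in macrophages, averaged 11.3 ± 0.538 FPKM (SD, n = 3) in WT hearts, close to the 11.8 ± 0.584 FPKM (SD, n = 3) of *Crlf2*-/- hearts.

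Other interferon-inducible genes had larger median fold changes than the guanylate-binding members, a difference that was not tested. The lists were chosen with earlier results of these data known, so their counts are a description. At an unadjusted limma p under 0.05, 3.22% of all genes were higher. Of 11 immunity-related and other interferon-inducible GTPases, 8 were higher at an unadjusted limma p under 0.05 and 0 were called, with a median log2 fold change of 0.48. This count was 4 without WT replicate 2, 5 without *Crlf2*-/- replicate 2 or *Crlf2*-/- replicate 3, and 10 (1 of them called) without WT replicate 3. *Irgm1*, which regulates this family, had 17.8, 16.8 and 20.7 FPKM in WT and 23.8, 29.5 and 26.8 FPKM in *Crlf2*-/- mice. Of 20 type I interferon-stimulated genes, 20 were higher at an unadjusted limma p under 0.05 and 0 were called, and their log2 fold changes ranged from 0.61 to 1.46 with a median of 0.99. *Oasl2* had the smallest p of them (log2 fold change 1.07, adjusted p = 0.132 from limma), and *Bst2* had the highest level. Of the guanylate-binding members, *Gbp3* exceeded the lowest log2 fold change of that list, *Gbp7* was level with it at 0.61, and the others lay below it. The deviation of WT replicate 3 was 0.37 for the GTPase list and 0.18 for the type I list. WT replicate 1 had -0.20 for the GTPase list and 0.16 for the type I list. For the type I list WT replicate 3 and WT replicate 1 were thus alike. For the guanylate-binding members and for the GTPase list they were not.

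**Figure D5:**
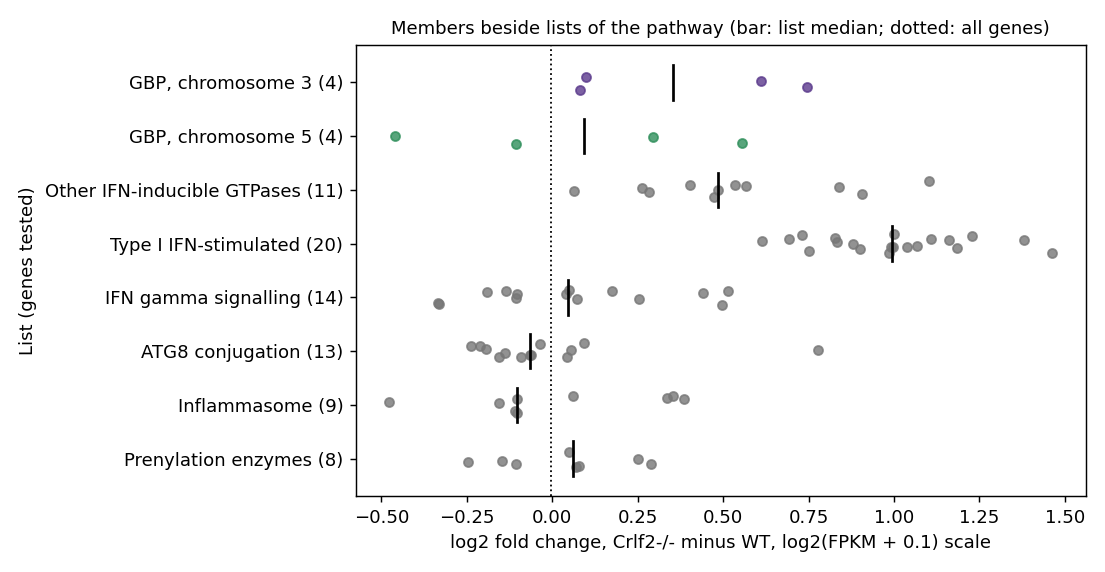
Log2 fold change of *Crlf2*-/- against WT for each tested gene of the family and of 6 lists of its pathway, with a bar at each median and a dotted line at the median of all genes. The type I interferon-stimulated genes lie between 0.61 and 1.46, and the guanylate-binding members lie between -0.46 and 0.75.

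The lists of partners of the proteins had medians near that of all genes. At an unadjusted limma p under 0.05, 3.22% of all genes were higher and 3.36% were lower. Of 13 genes of ATG8 conjugation and related factors, which place the proteins on vacuoles, 1 was higher at an unadjusted limma p under 0.05 (median log2 fold change -0.06), and this was *Rnf213*, with 8.12, 7.80 and 13.6 FPKM in WT and 16.4, 15.3 and 17.3 FPKM in *Crlf2*-/- mice. Like *Gbp7* and *Gbp9*, *Rnf213* was highest among WT mice in replicate 3. *Gabarap* was the most abundant gene of this list (log2 fold change -0.09). Of 9 inflammasome genes 1 was lower at that threshold, *Nlrp3* (log2 fold change -0.48, adjusted p = 0.729 from limma), the list median was -0.10, and *Gsdmd* was the most abundant (log2 fold change 0.06). Of 8 genes of protein prenylation, 0 reached an unadjusted limma p under 0.05, with a median of 0.06. Not all of these act on *Gbp2* and *Gbp5*, the prenylated members. The most abundant gene of this list was *Fnta* (log2 fold change -0.15). Its smallest p was that of *Rabggtb* (log2 fold change -0.24), which serves other proteins.

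The chromosome 5 cluster ends 4.21 Mb from *Crlf2*, and genes around both clusters were compared with all genes. Of 6 tested genes within 1 Mb of the chromosome 3 cluster 0 had an unadjusted limma p under 0.05, and their median log2 fold change was -0.08. The smallest p among them was that of *Unc5c* (log2 fold change 0.43, adjusted p = 0.827 from limma). Of 14 genes within 1 Mb of the chromosome 5 cluster, 0 had an unadjusted p under 0.05 and the median was 0.005, with *Abcg3* at -0.44 (adjusted p = 0.807 from limma). Between that cluster and *Crlf2*, 0 of 32 genes were higher and 1 was lower at this threshold, *Atp5k* (log2 fold change -0.36), and the median was 0.07. Within 5 Mb of *Crlf2*, leaving out the members, 2 of 95 genes were higher and 2 were lower. The smallest p among these was that of *Pgam5* (log2 fold change -0.32, adjusted p = 0.696 from limma). *Crlf2* itself was covered by 917, 813 and 707 fragments in WT hearts and by 437, 651 and 667 in the libraries labelled TSLPR KO (log2 fold change -0.52, adjusted p = 0.521 from limma). It was thus lower but present there, and a whole-gene value cannot tell which exons these fragments came from.

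Several members are near-identical in sequence. Over the 15 pairs on chromosome 5 the coding sequences were 90.0% to 98.4% identical, against 64.8% to 78.6% over the 6 pairs on chromosome 3 and 64.1% to 75.9% over the 24 pairs between chromosomes. *Gbp6* and *Gbp10* were the closest pair. In GENCODE M21, 64.5% of the 100-base windows of *Gbp6* and 73.5% of those of *Gbp10* also occurred in another gene, most of them in *Gm43302*, which overlaps both and is listed at 0 FPKM in all 6 libraries. The share was 10.01% for *Gbp7*, mostly with the pseudogene *Gm43802*, also listed at 0, and at most 5.13% for the other 7 members. With 50-base windows it was 18.1% for *Gbp8*, 19.2% for *Gbp11* and at most 8.05% for the rest of these 7. *Gbp4*, *Gbp8* and *Gbp9* share 60 exonic bases on the same strand at their 5′ ends (chr5:105139480-105139539), which is 1.16% of the exonic length of *Gbp9* and 1.74% of that of *Gbp8*. All 637 bases of *Gm43802* lie in exons of *Gbp7*, yet it reads 0. How fragments that fit several genes were counted is not given in the sources used here. If they were left out, *Gbp6*, *Gbp7* and *Gbp10* read low, so the levels of these 3 genes are uncertain. The related *Gbp2b* of chromosome 3 was covered by 2, 0 and 11 fragments in WT hearts and by 7, 0 and 0 in *Crlf2*-/- hearts, and the pseudogene *Gbp2-ps* had none.

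The libraries held 18508646 to 19682428 fragments on the genes of the table. The extraction label speaks of retina, but summed FPKM of 6 retinal markers was at most 0.155, with *Rcvrn* and *Crx* at 0, whereas 8 cardiomyocyte markers summed to 967 to 1875 FPKM in WT and 656 to 1268 FPKM in *Crlf2*-/- mice. Macrophage and monocyte markers, from cells that express the family, summed to 1685 to 3086 FPKM in WT and 1807 to 2616 FPKM in *Crlf2*-/- mice. Of these 8 markers 2 were higher at an unadjusted limma p under 0.05, 7 had positive fold changes, and the list median was 0.10. Most of each sum was *Lyz2* (1313 to 2575 FPKM in WT, 1398 to 2126 FPKM in *Crlf2*-/- mice), which had a log2 fold change of -0.12. WT replicate 3, the highest WT library for the family, had the lowest macrophage sum. Endothelial markers summed to 155 to 175 FPKM in WT and 137 to 149 FPKM in *Crlf2*-/- mice (2 of 7 lower). T cell markers, from a source of interferon gamma, summed to 14.98 to 23.1 FPKM in WT and 9.05 to 11.2 FPKM in *Crlf2*-/- mice (7 of 8 lower), and NK cell markers to 13.5 to 14.99 FPKM and 6.04 to 10.2 FPKM. Of the 6 NK cell markers 2 were lower, *Nkg7* and *Gzma*, which T cells also express, while the other 4 had positive fold changes, and the list median was 0.11. Of the other lists, 3 of 6 dendritic cell, 0 of 5 neutrophil, 0 of 5 B cell, 1 of 7 fibroblast, 5 of 5 red blood cell and 3 of 8 cardiomyocyte markers were lower at that threshold and none was higher. The part of these cells in the values of the guanylate-binding genes was not tested.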

How the data were processed

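Total RNA from hearts of 3 WT and 3 *Crlf2*-/- mice was sequenced as poly(A) libraries. The authors trimmed reads with fastp, aligned them with Hisat2 (version 2.0.5 in the submitters' processing notes), counted fragments with featureCounts and deposited FPKM with a gene length. Of the genes listed, 54495 were found in GENCODE M21 (GRCm38), 53585 with the same start and end. FPKM times length gave whole fragments for 100% of nonzero values, within 0.02 fragments or 0.1%. The deposited FPKM were divided by 21668004 to 23328473 fragments per library, of which 82.4% to 85.8% lay on listed genes. The table held 0 columns of other samples.

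Libraries were scaled with TMM (trimmed mean of M values) factors of the recovered fragments, and log2(FPKM + 0.1) was tested with limma 3.58.1 in R 4.3.3 (eBayes with trend and robust). Genes needed 10 fragments in 3 libraries and 15 in total, which left 15520. Intervals of 95% are from the moderated fit and are not adjusted. For single genes an exact permutation test was run. Calls needed an adjusted p up to 0.05 with a log2 fold change of 0.5 or more in size, and fold changes understate low genes. The study's count test was not run, and the recovered fragments were tested with voom as an alternative. The tests were checked on simulated fragments.

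The members, gene lists and tests were chosen with earlier results of these data known. Named genes were the members, *Crlf2*, other *Gbp* rows, of each pathway list the most abundant gene and that with the smallest p, of each window that with the smallest p, *Ifng* and *Irf1*, and the 5 genes most like *Gbp2* and *Gbp9*. A pathway gene under this rule is not reported here. Marker genes were named outside it, after their values were seen. *Gm43302* and *Gm43802* were named for their overlap with members. Identity was taken from global alignments of the longest coding sequences. A comparison of proteins set in the design was not run, and coding bases were compared in its place. Alternatives were other scaling, pseudocounts and filters, a replicate block, voom and leaving out each library. Other steps used Python 3.11.15 with pandas 2.3.3, scipy 1.17.1, numpy 2.4.6 and, for figures, matplotlib 3.10.9.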

Additional observations from a re-analysis of the deposited data

How the results depend on the processing

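The 8 tested members kept their side of the thresholds under all 14 alternatives, and 0 of them were called under each. In the main fit 3 of 8 members were higher at an unadjusted limma p under 0.05, where 3.22% of all genes were. This count was 2 without *Crlf2*-/- replicate 1 and 1 without WT replicate 1, WT replicate 2 or *Crlf2*-/- replicate 3. Of the values of single members under an alternative, 109 kept their direction and 3 reversed. With single libraries left out, *Gbp5* ranged from -0.090 (without WT replicate 2) to 0.29, and *Gbp4* from -0.27 to 0.13 (without WT replicate 3), with 0.023 when *Crlf2*-/- replicate 2 was left out. The chromosome 3 median ranged from 0.25 to 0.59, the chromosome 5 median from -0.07 (-0.075, without WT replicate 1) to 0.31, and their difference from -0.35 to -0.20 in these fits. Of all genes, 2 were called. There were 6 with no filter, 1 with at least 10 fragments in every library and from 1 to 14 without single libraries, with 14 without *Crlf2*-/- replicate 1, 5 without WT replicate 3 and 1 without WT replicate 1, WT replicate 2 or *Crlf2*-/- replicate 3. The causes were not tested. Both groups number their mice 1 to 3. The deviations of libraries that share a number had correlations of -0.016, 0.115 and 0.12. Those of libraries with different numbers ranged from -0.30 to 0.22, so the mice were not treated as paired. With the replicate block 4 genes and 0 members were called. Counting error limits *Gbp10* and *Gbp11*, with 2 to 17 fragments per library.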

Other observations

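Genes outside the family whose log2(FPKM + 0.1) followed the most abundant member of each cluster over the 6 libraries were listed by Pearson's r, as a description, since the libraries share their depth and fall into 2 groups. For *Gbp2* these were *Map2*, *2610044O15Rik8*, the septin gene *Sept10* (its symbol stands as a date in the table), *Phf11c* and *2610008E11Rik*. For *Gbp9* these were *Atxn7l1*, *Kcnj8*, *Thap6*, *Tlr3* and *Frk*. Of these, *Tlr3*, a sensor of double-stranded RNA, had 4.54, 3.82 and 5.88 FPKM in WT and 5.96, 5.56 and 6.09 FPKM in *Crlf2*-/- mice. These genes were picked for following *Gbp9* in the same libraries. That WT replicate 3 was the highest WT library for *Tlr3* follows from that choice and is no further evidence. The log2 fold change of *Tlr3* was 0.32 (adjusted p = 0.82 from limma). Values of r were 0.969 to 0.979 for the first list and 0.992 to 0.993 for the second.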
